A study of Mus musculus with 36 samples.

Results

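Gene expression on day 8 of undirected differentiation was compared with that on day 4 in cultures of Xmas mouse embryonic stem cells (mESCs). The comparison takes the 4 libraries of day 8 and the 4 libraries of day 4, which are 8 of the 36 libraries of a time course from day 0 to day 8, and pairs them by cell line and label. Xmas mESCs are female C57/Bl6 cells that carry GFP at the Hprt locus of one X chromosome and mCherry at the Hprt locus of the other. All libraries share this genotype and the same treatment. Cells were weaned from medium with LIF and the inhibitors of MEK and GSK3 (2i), which holds the naive state, into serum medium without LIF in steps of 25%, and were not passaged after the last step. Day 4 is therefore an early and day 8 a late time after the final plating, and the day cannot be told apart from time and density on the plate. Replicate 1 is line X14 labelled double, replicate 2 X14 labelled single, replicate 3 X18 labelled double and replicate 4 X18 labelled single on each day, and values below are always given in this order. No label explains the words double and single. The study reads a single reporter as XO in undifferentiated cells and loss of the second reporter during differentiation as X inactivation, but nothing in the labels ties the words to either. With only 2 lines, and no label saying that the cultures of a line were started separately, p-values measure the spread between these libraries.

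Pluripotent cells pass through several states before they commit to a lineage. Naive cells resemble the inner cell mass, and primed cells resemble the later epiblast, which expresses Otx2, de novo DNA methyltransferases and Fgf5 and can respond to Wnt, Nodal and BMP signals. Epiblast cells then form the primitive streak, which gives mesoderm and endoderm, or ectoderm, and the first epithelia outside the embryo proper come from trophectoderm and extraembryonic endoderm. Simple epithelia are built on filaments of keratins 8 and 18, desmosomes, tight junctions, integrins and a basement membrane.

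The markers given for the 2 states moved as their names say. Otx2 (chr14:48657679-48667644 in mm10), a homeobox factor of the epiblast and forebrain, had 273, 243, 307 and 257 reads per 1000000 reads of the library (RPM) on day 4 and 11.9, 61.7, 28.7 and 75 RPM on day 8. Every library of day 4 lay above every library of day 8 (log2 fold change -2.92, SE 0.45, adjusted p = 6.18e-06, limma with Benjamini-Hochberg adjustment over all genes tested). Krt8 (chr15:101996711-102004342), the type II keratin of simple epithelia, had 14.8, 10.3, 14.6 and 6.17 RPM on day 4 and 1401, 868, 1640.0 and 993 RPM on day 8. Krt18 (chr15:102028216-102032026), its type I partner, had 73.9, 58.2, 81.7 and 59.4 RPM and 1741, 1115, 2758 and 1355 RPM. For both keratins the days did not overlap (log2 fold change 6.77, SE 0.58, adjusted p = 1.08e-10 for Krt8, and log2 fold change 4.60, SE 0.44, adjusted p = 1.04e-09 for Krt18). Summed over Otx2, Fgf5, Dnmt3b and Pou3f1, markers of primed cells lay at 1647 to 3400 RPM per library on day 4 and at 244 to 645 RPM on day 8. Most of this sum was Dnmt3b, with means of 1849 and 262 RPM, while Fgf5 did not fall (means of 53 and 62.1 RPM). Summed over Krt8, Krt18, Krt19 and Krt7, markers of simple epithelium lay at 76.2 to 119 RPM and then at 2609 to 5670 RPM. In these bulk samples fewer cells of a type and less RNA per cell cannot be told apart.

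Markers of other cell types gave smaller sums. The 5 trophoblast markers Cdx2, Elf5, Gata3, Prl3d1 and Psg17 together had 0 to 13.5 RPM on day 4 and 17.8 to 48.3 RPM on day 8, with 2 of the 5 at 0 reads on day 8. The 5 neural stem cell markers had 15.8 to 24.1 RPM and 11.9 to 30.6 RPM, and the 5 visceral endoderm markers had 0 to 2.59 RPM and 0 to 3.89 RPM, with 4 of the 5 at 0 reads on day 8. The 8 fibroblast markers had 17.4 to 34.4 RPM and 44.4 to 79.7 RPM, a small sum beside the keratins. Most of it was Thy1 on day 4 (mean 21.9 RPM, and 1.19 RPM on day 8) and Col1a2 on day 8 (mean 34.4 RPM, and 0.162 RPM on day 4). Markers of naive cells had 71.8 to 173 RPM and 45.2 to 246 RPM, and their part in the differences between libraries was not tested. The 4 markers of blood and endothelium had 34.9 to 101 RPM and 2.38 to 23.4 RPM. Most of that sum was Pecam1, with means of 62.1 RPM on day 4 and 8.8 RPM on day 8, and 110 RPM on day 0. Cdh5 had no read on day 4 and a mean of 2.35 RPM on day 8. The 3 cardiac markers had 2.02 to 7.12 RPM on day 4 and no read on day 8.

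Depth was 1274068 to 1558966 reads in genes per library on day 4 and 730127 to 1844587 on day 8, where replicate 4 was shallowest. A floor of 3 reads corresponded to 1.46 to 3.57 RPM, and it covers counting error only. Of 14612 genes tested, 2381 (16.3%) were called higher on day 8 and 1393 (9.53%) lower, with a call needing an adjusted p under 0.05 and a fold change of at least 1 on the log2 scale. All 4 libraries of day 8 lay above all of day 4 for 17.1% of the genes, and below them for 13.4%. The median change of all genes was 0.10 on the deposited scale. When libraries were matched at their 75th percentile it was 0.007, and with quantile normalization -0.07. The share of calls that were higher was 63.1% on the deposited scale, 57.9% with the 75th percentile and 51.5% with quantile normalization. Changes below are on the deposited scale, and the median shift of 0.10 was not subtracted from them. On day 0 the X14 libraries labelled double and single stand in the opposite order of X-linked expression to the other pairs. Day 0 enters here only through the estimate of spread, and without it 2469 genes were called higher and 1433 lower.

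**Figure D1:**
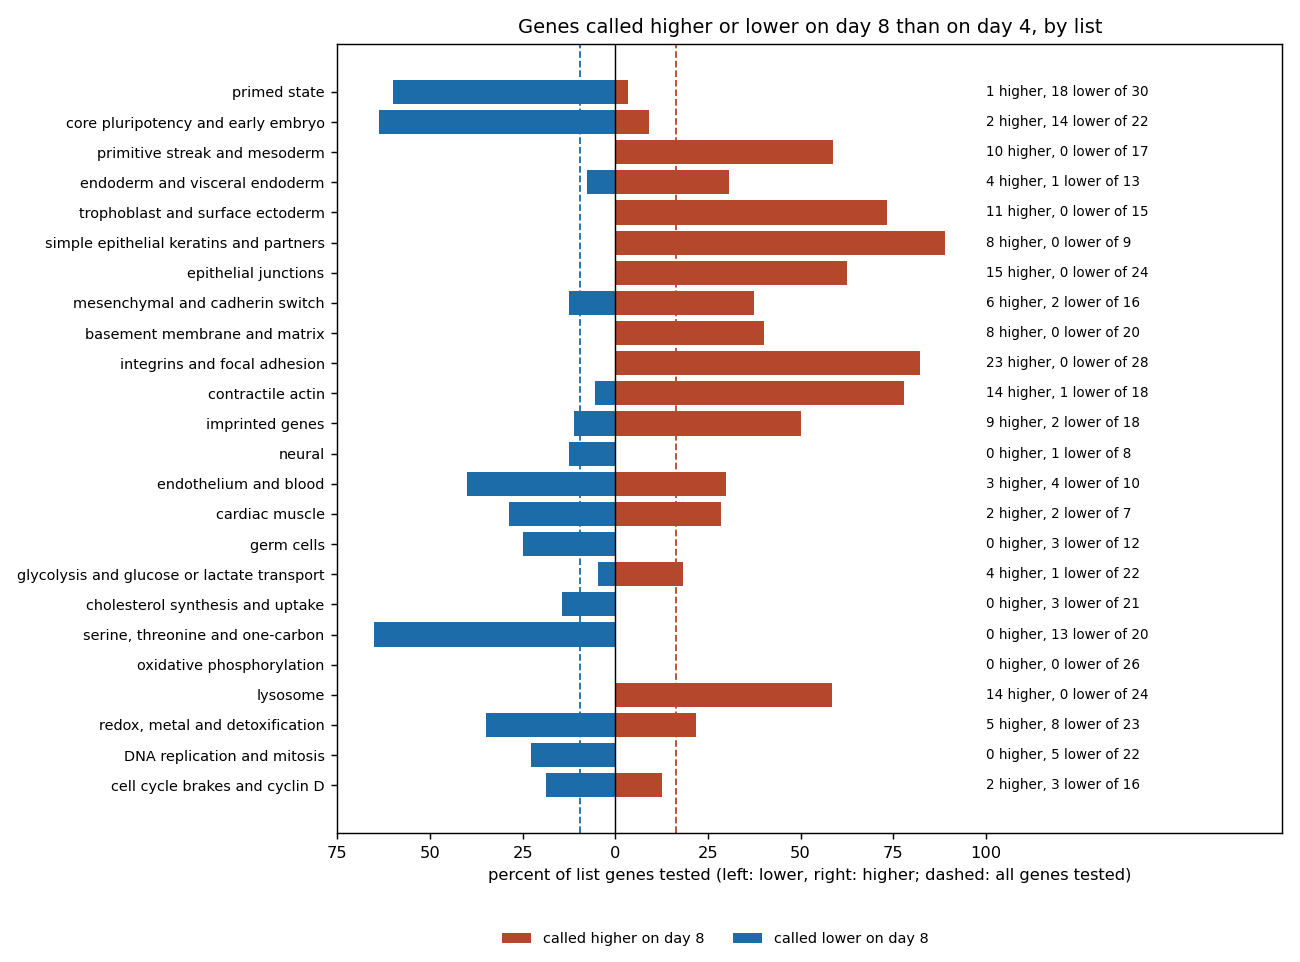
Percent of the genes tested in each of 24 lists that were called lower (left, blue) or higher (right, red) on day 8 than on day 4. Dashed lines are the percents over all 14612 genes, 9.53 and 16.3, and the text gives the counts. Keratins, adhesion, contractile, trophoblast and lysosome lists lie to the right, and the primed, core pluripotency and serine lists to the left.

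Of 30 genes in the primed state list, 18 were called lower (60%, against 9.53% of all genes tested), 1 was called higher and 11 had no call. The median change was -2.09 against 0.10 over all genes tested. All libraries of day 8 lay below all of day 4 for 18 of the 30, against 13.4% of all genes tested. Among the 18 were genes of growth factors and transcription factors. Fgf15, an FGF of the epiblast and neural tube, had 32.9, 44.6, 23.1 and 30.8 RPM on day 4 and 0, 0.972, 0 and 0 RPM on day 8, where only 1 library held any of its 2 reads. Pooled over the libraries of a day, day 4 exceeded day 8 by a factor of 97 (95% counting interval 26.5 to 806). Lef1, a nuclear partner of beta-catenin in Wnt signalling, had 129.7, 118, 125 and 103 RPM and then 2.6, 11.7, 0 and 3.57 RPM (log2 fold change -5.29, SE 0.50, adjusted p = 8.59e-10). Foxd3, a forkhead factor needed by the epiblast, went from 30.9, 36.9, 27.6 and 31.9 RPM to 0, 1.94, 0 and 2.38 RPM (log2 fold change -4.79, SE 0.56, adjusted p = 5.55e-08). None of these 3 genes overlapped between the days.

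The machinery of de novo DNA methylation fell together with them. Dnmt3b had 1240.0, 2761, 1172 and 2221 RPM on day 4 and 188, 431, 144 and 283 RPM on day 8 (log2 fold change -2.85, SE 0.33, adjusted p = 4.34e-08). On each day it was higher in the single than in the double cultures, and all values of day 8 lay below all of day 4. Dnmt3a changed by -2.89 (adjusted p = 1.12e-07) and Dnmt3l, their catalytically inactive partner, by -3.70 (adjusted p = 2.79e-08). ETS factors downstream of FGF fell too, Etv4 by a change of -4.09 (adjusted p = 2e-08) and Etv5 by -2.76 (adjusted p = 3.62e-09), as did Spry4, a feedback inhibitor of FGF signalling, at -4.42 (adjusted p = 1.04e-06). The POU factor Pou3f1 (-2.33, adjusted p = 5.63e-05) and Utf1, a chromatin factor of the epiblast (-2.29, adjusted p = 3.31e-09), were also called lower.

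Other primed genes were not called lower. Fgf5, the classic epiblast marker, had 55.1, 69.2, 41.7 and 46 RPM on day 4 and 23.9, 92.8, 43.5 and 88 RPM on day 8. Its days overlapped, and no change was called (log2 fold change 0.05, SE 0.46, adjusted p = 0.944). Replicates 2 and 4, both labelled single, held the highest values of day 8. The transcription factors Zic2 (-0.58, adjusted p = 0.276), Sox4 (-0.24, adjusted p = 0.773) and Grhl2 (-0.26, adjusted p = 0.596) had no call either. Cldn6, a claudin of embryonic epithelia, was the gene of the list called higher (log2 fold change 1.30, SE 0.50, adjusted p = 0.0424). Without replicate 2, 3 or 4 that call was lost, with adjusted p = 0.0709, 0.199 and 0.101, as it was without the replicate block (0.0877).

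In the list of core pluripotency and early embryo genes 14 of 22 were called lower and 2 higher, with a median change of -1.26. The shares were 63.6% lower and 9.1% higher, against 9.53% and 16.3% over all genes tested. Pou5f1, which encodes OCT4, had 1178, 1044, 1303 and 1296 RPM on day 4 and 82.5, 229.8, 164 and 368 RPM on day 8 (log2 fold change -2.71, SE 0.26, adjusted p = 1.22e-09). Sox2, its partner on DNA, had 301, 217, 293 and 165 RPM and 40.5, 64.6, 33.9 and 54.7 RPM (log2 fold change -2.34, SE 0.25, adjusted p = 1.22e-08). In both genes every value of day 8 lay below every value of day 4, and transcript of each remained in all libraries of day 8. Dppa4 (-3.49, adjusted p = 6.84e-12), Dppa5a (-2.98, adjusted p = 2.27e-07), Gdf3 (-3.06, adjusted p = 1.24e-12), L1td1 (-2.10, adjusted p = 1.03e-06) and Mycn (-2.21, adjusted p = 4.41e-07) fell with them. Sall4, a zinc finger factor of stem cells, stayed without a call (-0.16, adjusted p = 0.724), and so did Esrrb (-0.92, adjusted p = 0.0627), which was called lower without replicate 1 (-1.01, adjusted p = 0.0484) or replicate 2 (-1.25, adjusted p = 0.0286).

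The 6 markers of naive cells split, with 2 called higher, 2 lower and 2 without a call. Klf4, a zinc finger factor that is also expressed in epithelia, had 6.05, 1.29, 5.63 and 2.24 RPM on day 4 and 43.1, 14.1, 24.4 and 2.38 RPM on day 8 (log2 fold change 2.12, SE 0.53, adjusted p = 0.00218). Its X18 single library of day 8 lay within the range of day 4, so the days overlapped. Tbx3, a T-box factor of naive cells, mesoderm and extraembryonic endoderm, had 2.69, 0.647, 0.563 and 1.12 RPM and 42, 9.23, 22.6 and 8.33 RPM without overlap (log2 fold change 4.01, SE 0.56, adjusted p = 1.16e-06). The X-linked nuclear receptor gene Nr0b1 (-3.66, adjusted p = 1.5e-08) and Zfp42, which encodes REX1 (-1.20, adjusted p = 0.00184), fell, and Tfcp2l1 (0.88, adjusted p = 0.141) and Esrrb had no call. Without replicate 4 Zfp42 changed by -0.84, under the minimum fold, and without replicate 3 Tfcp2l1 was called higher (1.36, adjusted p = 0.0427).

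**Figure D2:**
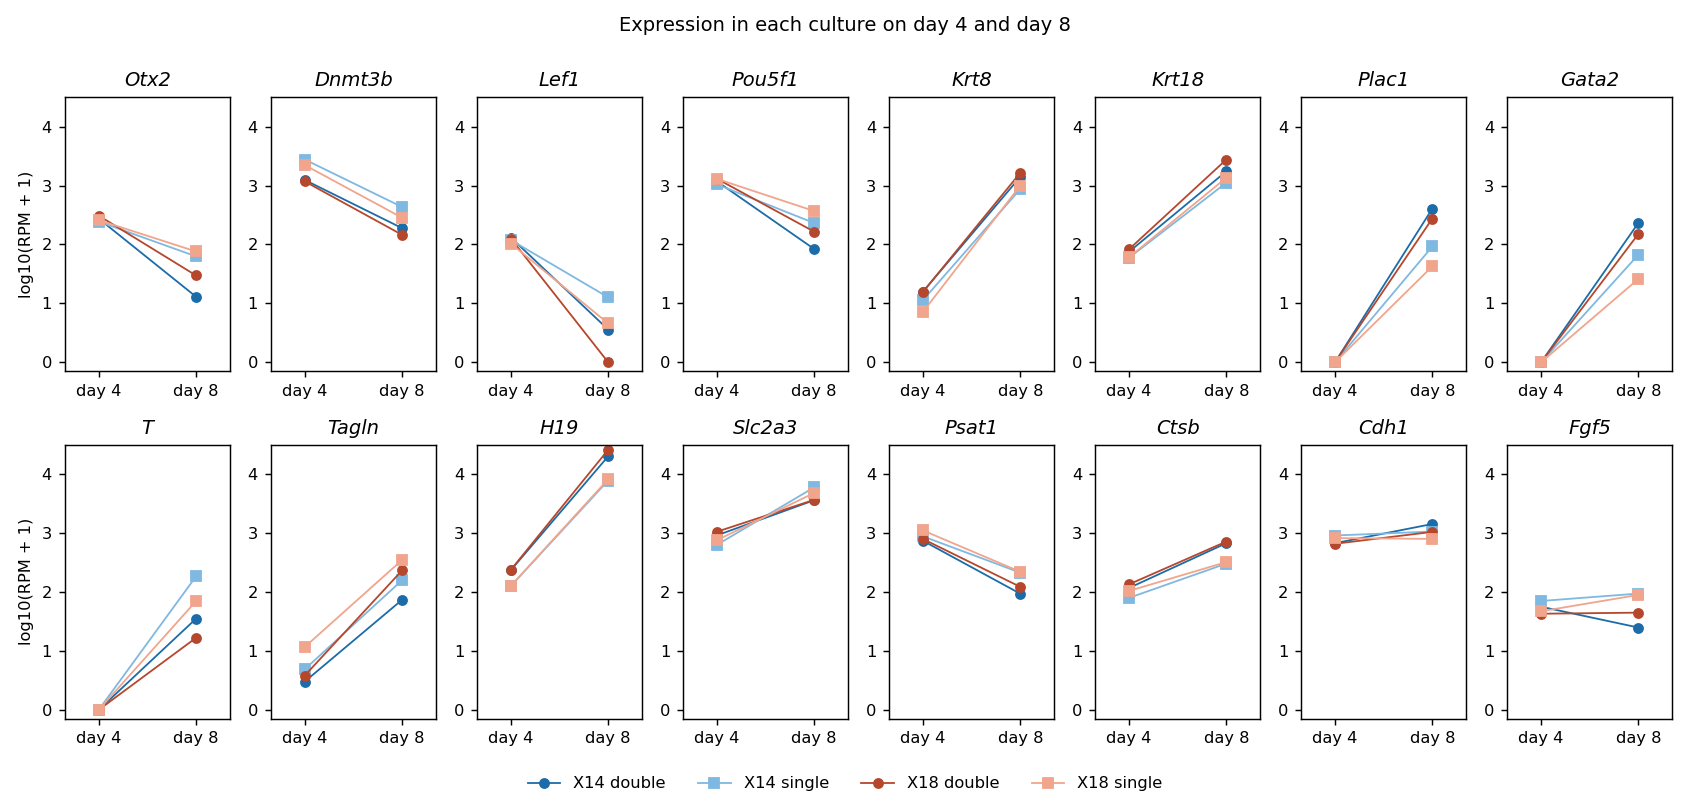
Expression of 16 genes in each culture on day 4 and day 8, as log10(RPM + 1), with a line joining the libraries of the same line and label (dark circles double, pale squares single). Otx2, Dnmt3b, Lef1 and Pou5f1 go down and the keratins, Plac1, Gata2, T, Tagln and H19 go up in all 4 cultures, while lines of Fgf5 run flat or cross.

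Most genes of the primitive streak and early mesoderm had few or no reads on day 4. Of 17 genes tested in the list of 22, 10 were called higher (58.8%, against 16.3% over all genes tested) and 0 lower. The median change was 2.37, or 3.07 with genes at 0 set at their bound. With a mean of at least 10 RPM as filter, 6 were tested and 5 called higher. T, the T-box factor Brachyury that defines the streak, had no read in any library of day 4 and 34.3, 183, 15.7 and 69 RPM on day 8. It was at least 191-fold higher on day 8, with the floor of 3 reads taken over the 4 libraries of day 4, and its values were highest in the single cultures. Hand1, a bHLH factor of lateral mesoderm and trophoblast, had 1.34, 0.647, 2.25 and 0 RPM and then 104, 32.5, 73.1 and 19 RPM (log2 fold change 5.55, SE 0.68, adjusted p = 1.27e-07). Its order among the cultures of day 8 was the opposite, with both double cultures above both single ones. Wnt3, the ligand that induces the streak, had 0, 0, 1.13 and 1.68 RPM and then 14, 30.1, 12.2 and 17.8 RPM (log2 fold change 4.27, SE 0.44, adjusted p = 5.3e-09).

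Signals and later mesoderm factors rose as well. Bmp4, the BMP ligand that patterns the epiblast, changed by 3.68 (adjusted p = 1.01e-07), and Tbx20, a T-box factor of cardiac mesoderm, by 3.07 (adjusted p = 2.22e-05). Msx2, a homeobox target of BMP, was higher on day 8 by a pooled factor of 259 (95% counting interval 46.1 to 10290.0), and the PDGF receptor gene Pdgfra by 27.6 (95% counting interval 7.25 to 234). Mixl1, a homeobox factor of the nascent streak, had 0, 0, 0 and 0.56 RPM and 0, 10.7, 0 and 1.19 RPM and no call, with nearly all its reads in X14 single. Mesp1, Hand2, Isl1 and Kdr, genes of cardiac and vascular progenitors, had too few reads to be tested.

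Genes of trophoblast and surface ectoderm rose in 11 of 15 cases tested (73.3%, against 16.3% over all genes tested) and fell in 0. The median change was 3.80, or 3.96 with bounds. Plac1, an X-linked placental gene, had no read on day 4 and 405, 91.3, 274 and 41.6 RPM on day 8, at least 485-fold higher. Gata2, a zinc finger factor of trophoblast and blood, likewise had no read on day 4 and 231, 66.1, 149.7 and 25 RPM on day 8, at least 285-fold higher. For each of them the 2 double cultures of day 8 lay above the 2 single ones, and the difference between labels could not be read as a change of the fold because day 4 was at 0. Cdx2, the homeobox factor of trophectoderm and of posterior mesoderm, went from no read to 3.63, 14.6, 6.96 and 4.76 RPM, at least 18-fold higher.

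Tfap2c, the AP-2 gamma factor of trophoblast and germ cells, had 36.3, 3.88, 30.4 and 2.24 RPM on day 4 and 267, 131, 172 and 94 RPM on day 8 (log2 fold change 3.96, SE 0.42, adjusted p = 9.9e-09). Day 8 was above day 4 throughout, and on day 4 the double cultures held more than the single ones. Gata3 (3.04, adjusted p = 0.000613), Tead4 (4.18, adjusted p = 1.55e-08), the homeobox gene Dlx3 (3.80, adjusted p = 1e-05) and the retrotransposon-derived placental gene Peg10 (3.17, adjusted p = 5.15e-07) rose, and Wnt6 was higher by a pooled factor of 93.8 (95% counting interval 25.6 to 781). Tfap2a (0.15, adjusted p = 0.869), Ascl2 (0.83, adjusted p = 0.249), Grhl3 (0.76, adjusted p = 0.286) and Eomes (0.33, adjusted p = 0.777) had no call. Elf5, Trp63, Krt5, Krt14, Dlx5, Prl3d1 and Psg17, which mark trophoblast stem cells, stratified epithelium and placental hormone cells, were too low to be tested.

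Keratins and the proteins that anchor them rose in 8 of 9 cases tested (88.9%, against 16.3% over all genes tested) and fell in 0. Their median change of 4.60 was the highest of the 24 lists. This rank is no test, since the lists were chosen with earlier results of these data known and this one holds the given markers Krt8 and Krt18. Krt7 had 4.71, 5.18, 5.63 and 6.73 RPM on day 4 and 410.1, 229.8, 534 and 283 RPM on day 8 (log2 fold change 5.97, SE 0.67, adjusted p = 2.54e-08). Krt19 had 12.8, 7.76, 17.5 and 3.92 RPM and 616, 396, 738 and 433 RPM (log2 fold change 5.86, SE 0.44, adjusted p = 9.43e-12). Dsp, desmoplakin, which ties keratin filaments to desmosomes, had 14.1, 1.94, 16.9 and 3.36 RPM and 422, 331, 219 and 128 RPM (log2 fold change 5.32, SE 0.71, adjusted p = 5.81e-07). Day 8 lay above day 4 in every culture for all 3. The linker periplakin, Ppl, changed by 3.40 (adjusted p = 2.64e-05), and Krt20 went from no read to at least 8.09-fold higher. Per length of transcript, Krt18 had a mean of 1244 RPM per kilobase of exon (RPKM) on day 8, Krt8 679 RPKM, Krt19 294 RPKM and Krt7 51.7 RPKM.

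AP-2 factors bind a palindrome written GCCNNNGGC, and promoters of keratin and linker genes are shown because these genes and the AP-2 gene Tfap2c were higher on day 8 than on day 4. Their courses differed, since by day 5 the mean of Krt18 had gone from 68.3 to 387 RPM while Tfap2c had 18.2 and 15.9 RPM. The windows run from 250 bases before to 50 bases after the annotated start and come from RefSeq (GRCm38.p6), printed 5′ to 3′ on the strand of the gene with matches in capitals. They are Krt7 (chr15:101412153-101412452, plus strand), Krt18 (chr15:102027966-102028265, plus strand), Dsp (chr13:38151044-38151343, plus strand) and Krt8 (chr15:102004293-102004592, minus strand), the last without a match.

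Krt7: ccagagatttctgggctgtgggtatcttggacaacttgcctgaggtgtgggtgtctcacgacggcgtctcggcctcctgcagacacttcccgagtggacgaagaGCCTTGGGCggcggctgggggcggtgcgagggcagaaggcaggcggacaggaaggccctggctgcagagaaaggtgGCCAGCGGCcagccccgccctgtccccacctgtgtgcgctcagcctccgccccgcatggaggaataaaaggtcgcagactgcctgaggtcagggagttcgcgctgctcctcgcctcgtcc

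Krt18: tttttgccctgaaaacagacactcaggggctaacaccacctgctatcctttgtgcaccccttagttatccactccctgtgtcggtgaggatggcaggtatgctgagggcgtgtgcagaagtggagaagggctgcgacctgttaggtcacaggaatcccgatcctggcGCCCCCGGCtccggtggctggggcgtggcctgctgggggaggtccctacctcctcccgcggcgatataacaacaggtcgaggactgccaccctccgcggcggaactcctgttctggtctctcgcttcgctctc

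Dsp: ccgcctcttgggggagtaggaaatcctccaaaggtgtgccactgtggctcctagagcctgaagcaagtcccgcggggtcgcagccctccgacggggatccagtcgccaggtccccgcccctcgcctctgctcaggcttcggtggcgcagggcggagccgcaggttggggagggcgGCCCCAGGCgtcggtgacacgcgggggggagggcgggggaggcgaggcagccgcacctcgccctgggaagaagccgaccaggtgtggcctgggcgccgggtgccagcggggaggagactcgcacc

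Krt8: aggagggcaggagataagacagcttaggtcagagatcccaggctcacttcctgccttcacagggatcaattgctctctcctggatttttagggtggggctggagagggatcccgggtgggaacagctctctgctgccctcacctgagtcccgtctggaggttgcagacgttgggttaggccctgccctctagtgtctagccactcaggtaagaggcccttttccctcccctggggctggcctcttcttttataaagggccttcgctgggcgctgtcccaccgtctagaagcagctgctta

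The matches began 146 and 70 bases before the start in Krt7, 83 before it in Krt18 and 75 before it in Dsp. Of 6 listed keratin and linker genes with a promoter in the table, 3 held a match, and of 14 listed trophoblast and ectoderm genes 4 did (Cdx2, Gata2, Gata3 and Wnt6), where 18.5% of all 27025 genes with a promoter hold one on either strand. A match is only a string of letters in this window and says nothing about binding.

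Epithelial junction genes rose in 15 of 24 cases (62.5%, against 16.3% over all genes tested) and fell in 0, with a median change of 1.34. Cdh1, E-cadherin, had 672, 906, 656 and 820.0 RPM on day 4 and 1422, 1060.0, 1044 and 794 RPM on day 8. It overlapped between the days and had no call (log2 fold change 0.48, SE 0.29, adjusted p = 0.202). Epcam was also without a call (0.10, adjusted p = 0.661). Dsc2, a desmosomal cadherin, had 0, 1.29, 0 and 0.56 RPM and then 181, 140.4, 92.3 and 92.8 RPM, a pooled factor of 302 (95% counting interval 103 to 1468). Its partner Dsg2 (2.50, adjusted p = 8.39e-06), the plakophilin Pkp3 (2.95, adjusted p = 4.81e-05) and the desmosomal Perp (3.34, adjusted p = 1.35e-10) rose with it.

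Among genes of tight junctions, the claudins Cldn3 (3.29, adjusted p = 9.13e-07), Cldn4 (2.05, adjusted p = 5.22e-06) and Cldn7 (2.26, adjusted p = 0.000644) and the scaffold Tjp3 (2.59, adjusted p = 4.81e-05) were called higher. The surface protease St14, matriptase, and its inhibitor Spint1 rose by 2.10 (adjusted p = 3.8e-08) and 2.06 (adjusted p = 0.00059).

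Genes of adhesion to the matrix rose widely, with 23 of 28 genes of the integrin and focal adhesion list called higher and 0 lower (median change 1.90). That is 82.1% higher, against 16.3% over all genes tested. All libraries of day 8 lay above all of day 4 for 22 of the 28, against 17.1% of all genes tested. Itgb3, the beta subunit of the vitronectin receptor, had 4.03, 0, 4.5 and 0 RPM on day 4 and 127, 45.2, 58.3 and 16.6 RPM on day 8 (log2 fold change 5.0, SE 0.71, adjusted p = 1.55e-06). On both days the double cultures held more of it than the single ones. Lgals1, a galectin that binds glycans of the cell surface, had 60.5, 46.6, 66.5 and 68.4 RPM and 753, 374, 1045 and 590.0 RPM without overlap (log2 fold change 3.43, SE 0.33, adjusted p = 1.02e-09). The listed annexins, which bind membranes in the presence of calcium, were called higher, Anxa1 by 7.55 (adjusted p = 2.29e-11), Anxa3 by 6.87 (adjusted p = 5.73e-13) and Anxa2 by 2.75 (adjusted p = 9.54e-06).

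Lgals3 (4.95, adjusted p = 8.4e-06), Ahnak (4.76, adjusted p = 8.7e-09), S100a6 (3.24, adjusted p = 4.56e-07), the hyaluronan receptor Cd44 (2.88, adjusted p = 6.89e-06), the tetraspanin Cd9 (1.97, adjusted p = 6.58e-08) and Itgb5 (1.49, adjusted p = 0.000114) were also higher. The common beta subunit Itgb1 changed by 0.80 (adjusted p = 0.00638), under the minimum fold, and Itga6 (0.07, adjusted p = 0.885) and the actin crosslinker Flna (-0.18, adjusted p = 0.714) had no call.

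Contractile actin genes rose in 14 of 18 cases tested (77.8%, against 16.3% over all genes tested). Another 1 was called lower (5.6%, against 9.53%), and the median change was 2.05. Tagln, transgelin of smooth muscle, had 2.02, 3.88, 2.82 and 10.7 RPM on day 4 and 72.7, 157, 232 and 349 RPM on day 8 (log2 fold change 5.48, SE 0.40, adjusted p = 5.63e-12). Acta2, smooth muscle actin, had no read on day 4 and 18.2, 19.9, 23.5 and 38.1 RPM on day 8, at least 49.7-fold higher. Tpm1, a tropomyosin, had 139.8, 206, 145 and 199 RPM and 777, 1155, 1283 and 1491 RPM (log2 fold change 2.75, SE 0.16, adjusted p = 5.95e-14). In all 3 the days were apart. Acta1, skeletal muscle actin, went from no read to at least 41.2-fold higher.

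Cnn2 (2.48, adjusted p = 6.83e-07), caldesmon Cald1 (2.59, adjusted p = 2.15e-09) and the secreted matricellular genes Cyr61 (2.32, adjusted p = 7.93e-06) and Ctgf (1.61, adjusted p = 4.36e-05), known targets of YAP, were higher. Cnn1, the calponin of mature smooth muscle, was not (-0.84, adjusted p = 0.164), and without replicate 3 it was called lower (-1.37, adjusted p = 0.0355). Myl9 had no call (0.58, adjusted p = 0.398), and Myl7, the atrial light chain, was called lower at 23 reads on day 4 and 1 on day 8, a pooled factor of 20.8 (95% counting interval 3.38 to 858). After thinning all libraries to 730127 reads the call of Myl7 was lost (adjusted p = 0.0983).

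Serum response factor binds the CArG box, and the promoters of Acta1 (chr8:123894726-123895025, minus strand) and Cnn2 (chr10:79988350-79988649, plus strand) are shown because they are called higher and hold a match, in capitals, with window, source and build as above.

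Acta1: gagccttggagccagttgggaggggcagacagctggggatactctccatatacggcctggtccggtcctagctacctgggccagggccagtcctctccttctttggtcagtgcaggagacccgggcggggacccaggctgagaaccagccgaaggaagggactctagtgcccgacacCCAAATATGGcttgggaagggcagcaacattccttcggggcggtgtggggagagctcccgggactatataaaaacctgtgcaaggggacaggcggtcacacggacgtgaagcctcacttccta

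Cnn2: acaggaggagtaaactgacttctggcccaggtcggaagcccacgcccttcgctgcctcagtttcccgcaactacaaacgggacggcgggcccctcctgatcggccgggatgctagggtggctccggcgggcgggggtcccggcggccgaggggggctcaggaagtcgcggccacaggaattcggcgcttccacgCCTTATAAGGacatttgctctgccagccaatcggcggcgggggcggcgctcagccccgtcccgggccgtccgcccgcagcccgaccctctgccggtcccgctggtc

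The CArG boxes began 73 bases before the start in Acta1 and 56 before it in Cnn2. Of 15 listed contractile genes with a promoter 6 held a CArG box, against 1.81% of all 27025 genes. They were Acta1, Actc1 and Cnn2, which rose, Myl9 and Myl6, which had no call, and Myl7, which was lower. In the integrin list 1 of 21 did, Vcl. Searches on both strands for other factors' letters are given as counts. The AP-1 letters TGANTCA stood in 0 of 6 keratin and 5 of 21 adhesion promoters (8.97% of all), the lysosomal CLEAR core TCACGTGA in 2 of 19 lysosome promoters (1.12% of all), and the octamer ATTTGCAT in 0 of 18 primed and 1 of 14 core pluripotency promoters (1.97% of all). The ATF4 letters TGATGNAA stood in 0 of 17 serine and one-carbon promoters (4.51% of all), and the sterol element TCACNCCAC in 1 of 14 cholesterol promoters (1.44% of all).

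Basement membrane genes rose in 8 of 20 cases (40%, against 16.3% over all genes tested) and fell in 0 (median change 0.79). Col4a1, the main collagen of basement membranes, had 16.1, 9.71, 13.5 and 12.3 RPM on day 4 and 403, 251, 251 and 109 RPM on day 8 without overlap (log2 fold change 4.17, SE 0.54, adjusted p = 3.53e-07). Its partner chain Col4a2 (5.93, adjusted p = 8.45e-08), perlecan Hspg2 (2.04, adjusted p = 0.00139), the laminin chain Lamb2 (2.46, adjusted p = 1.98e-06) and the collagen chaperone Serpinh1 (2.04, adjusted p = 1.98e-11) rose. Lama1, the laminin chain of the early embryo (0.03, adjusted p = 0.981), and Nid2 (-0.33, adjusted p = 0.398) had no call.

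The mesenchymal list was mixed, with 6 of 16 genes tested called higher, 2 lower and a median change of 0.83. The shares were 37.5% higher and 12.5% lower, against 16.3% and 9.53% over all genes tested. Col1a2, a chain of fibrillar collagen, had 0, 0.647, 0 and 0 RPM on day 4 and 33.8, 52.5, 25.2 and 26.2 RPM on day 8, a pooled factor of 247 (95% counting interval 43.9 to 9808). Every library of day 8 lay above every library of day 4, where only X14 single held a read. Col1a1 (3.98, adjusted p = 9.95e-06) and the repressor Snai1 (2.19, adjusted p = 0.00126) rose, while the surface glycoprotein Thy1 fell (-4.23, adjusted p = 1.46e-06). Vimentin, Vim (-0.08, adjusted p = 0.852), and fibronectin, Fn1 (-0.03, adjusted p = 0.965), had no call, and Col3a1, Cdh11, Snai2, Twist2, Lum and S100a4 were too low to be tested.

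Of 13 genes of definitive and visceral endoderm tested, 4 were called higher and 1 lower (30.8% and 7.7%, against 16.3% and 9.53% over all genes tested), with a median change of 0.16. Without replicate 2, with quantile normalization or after thinning the number higher was 2, and with log2(RPM + 1) it was 3. With a mean of at least 10 RPM as filter, 3 were tested and 1 called higher. Without replicate 4 or with no minimum fold the number lower was 2. Foxa2, a forkhead factor of endoderm and node, went from no read to at least 22.1-fold higher, and Dab2, an endocytic adaptor, changed by 3.71 (adjusted p = 2.47e-06). Afp, Ttr, Apoa1 and Hnf4a were too low to be tested. In the neural list 0 of 8 were called higher and 1 lower (12.5%), and 0 lower without replicate 4. In the endothelium and blood list 3 of 10 were higher (30%) and 4 lower (40%). Among them the VEGF receptor Flt1 was up (5.07, adjusted p = 2.49e-09). Pecam1 (-3.07, adjusted p = 2.68e-05) and Tek (-3.85, adjusted p = 2.8e-06) were down, Pecam1 also being a gene of mouse stem cells. The number higher was 1 without replicate 1 or 4 and with days 4 and 8 only. It was also 1 with the 75th percentile, quantile normalization, log2(RPM + 1) or thinning, so the 3 calls depended on the processing. It was 2 without replicate 2 or 3, without the replicate block and with voom. The number lower was 2 without replicate 2, and 5 with the 75th percentile, quantile normalization, log2(RPM + 1) or voom. The cardiac list had 2 of 7 higher, Myl4 (4.31, adjusted p = 3.67e-05) and Tnnc1 (at least 10.7-fold), and 2 lower (28.6% each). Of 12 germ cell genes 0 were called higher and 3 lower (25%), Tdrd12 (-5.42, adjusted p = 9.43e-12), Dazl (-3.90, adjusted p = 3.54e-07) and Mael (-3.02, adjusted p = 2.28e-05).

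Imprinted genes of growth and placenta rose in 9 of 18 cases and fell in 2 (median change 0.86). The shares were 50% higher and 11.1% lower, against 16.3% and 9.53% over all genes tested. H19, the maternally expressed noncoding RNA, had 233, 125, 236 and 126 RPM on day 4 and 20060.0, 7775, 25880.0 and 8183 RPM on day 8 (log2 fold change 6.30, SE 0.56, adjusted p = 2.22e-10). Igf2, the paternally expressed growth factor beside it, had 12.1, 3.23, 5.63 and 2.8 RPM and 2648, 1432, 1036 and 542 RPM (log2 fold change 7.92, SE 0.58, adjusted p = 5.63e-12). Cdkn1c, a maternally expressed inhibitor of cyclin-dependent kinases, had 45.7, 18.8, 34.9 and 31.4 RPM and 391, 159.9, 412 and 179.6 RPM (log2 fold change 3.07, SE 0.37, adjusted p = 7.24e-08). The days were apart for all 3, and for H19 and Cdkn1c both double cultures of day 8 lay above both single ones.

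Phlda2 (1.57, adjusted p = 0.00156), the amino acid transporter Slc38a4 (1.39, adjusted p = 2.28e-06) and Plagl1 (2.60, adjusted p = 0.00149) rose too. Mest had 319, 302, 291 and 269 RPM on day 4 and 115, 146, 95.7 and 131 RPM on day 8 and was called lower (log2 fold change -1.29, SE 0.25, adjusted p = 0.00011), as was Snrpn (-1.38, adjusted p = 7.62e-07). Igf2r, the receptor that clears IGF2 (0.32, adjusted p = 0.538), and Grb10 (0.0, adjusted p = 0.995) had no call, so the imprinted genes did not all move in the same direction.

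In the list of glycolysis and glucose or lactate transport, 4 of 22 genes were called higher (18.2%, against 16.3% over all genes tested), 1 lower and 17 had no call, with a median change of -0.25. Slc2a3, the high-affinity glucose transporter GLUT3, had 911, 629.5, 1051 and 755 RPM on day 4 and 3610.0, 5960.0, 3661 and 4794 RPM on day 8 (log2 fold change 2.42, SE 0.29, adjusted p = 5.99e-08). Slc2a1, the broadly expressed GLUT1, had 1395, 1337, 1279 and 1162 RPM and 3680.0, 3044, 3324 and 2974 RPM (log2 fold change 1.33, SE 0.20, adjusted p = 3.3e-06). Day 8 was above day 4 in every culture for both, and their mean levels on day 8 were 622 and 1141 RPKM. Pfkfb3, which makes the activator of phosphofructokinase, rose by 1.58 (adjusted p = 8.74e-05), and the lactate transporter Slc16a1 by 1.01 (adjusted p = 8.97e-06), a call that was lost without replicate 1 (0.84, under the minimum fold).

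Pfkp, the platelet form of phosphofructokinase, had 460.4, 239, 509 and 274 RPM on day 4 and 121, 89.4, 98.3 and 57.1 RPM on day 8 and was the gene of this list called lower (log2 fold change -2.0, SE 0.21, adjusted p = 9.42e-09). The enzymes Ldha (-0.65, adjusted p = 0.00329), Pkm (-0.63, adjusted p = 0.021) and Eno1 (-0.84, adjusted p = 0.000313) passed the adjusted p below the minimum fold.

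Serine, threonine and one-carbon metabolism, which feeds methyl groups and nucleotides, went down as a list. Of 20 genes tested 13 were called lower (65%, against 9.53% over all genes tested) and 0 higher. The median change was -1.15, and all 20 changes were negative. Without replicate 1 the number lower was 9. Psat1, the transaminase of serine synthesis, had 737, 877, 791 and 1107 RPM on day 4 and 92.4, 211, 121 and 219 RPM on day 8 (log2 fold change -2.52, SE 0.22, adjusted p = 1.25e-10). Mthfd2, the mitochondrial folate enzyme, had 278, 359.7, 306 and 369 RPM and 26, 69.5, 31.3 and 58.3 RPM (log2 fold change -2.94, SE 0.22, adjusted p = 6.88e-12). Neither gene overlapped between the days, and on day 8 the single cultures held more of each than the double ones. Shmt2 (-1.94, adjusted p = 1.02e-08), the glycine cleavage enzyme Gldc (-1.66, adjusted p = 1.55e-06), Psph (-1.48, adjusted p = 2.65e-06) and the thymidylate synthase Tyms (-1.19, adjusted p = 0.00114) fell, as did threonine dehydrogenase, Tdh (-3.85, adjusted p = 2.8e-06), an enzyme of mouse stem cells, and the arginine transporter Slc7a3 (-3.46, adjusted p = 5.23e-10). Phgdh, the enzyme before Psat1, changed by -0.99 (adjusted p = 0.00048), just under the minimum fold, and was called lower without replicate 3 (-1.02) or replicate 4 (-1.17).

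Oxidative phosphorylation had no call in either direction over 26 genes tested (median change -0.27, with limma as above), and its members changed by -1.20 to 0.26. With no minimum fold, Atp5b (-0.65, adjusted p = 0.000632) and Cyc1 (-0.72, adjusted p = 0.000922) were among those that passed the adjusted p. In the cholesterol list 3 of 21 genes were called lower (14.3%, against 9.53% over all genes tested) and 0 higher (median change -0.37). The number lower was 1 without replicate 1 or 3 and 5 without replicate 2.

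Lysosome genes rose in 14 of 24 cases (58.3%, against 16.3% over all genes tested) and fell in 0, with a median change of 1.17. Ctsb, the protease cathepsin B, had 116, 78.3, 134 and 103 RPM on day 4 and 671, 302, 715 and 320.0 RPM on day 8 (log2 fold change 2.13, SE 0.18, adjusted p = 1.07e-10). No library of day 8 lay within the range of day 4, and both double cultures lay above both single ones on day 8. Legumain, Lgmn (2.23, adjusted p = 3.93e-11), the acid lipase Lipa (2.49, adjusted p = 2.22e-05), prosaposin, Psap (1.97, adjusted p = 3.77e-07), the membrane protein Lamp2 (2.10, adjusted p = 4.47e-07), hexosaminidase, Hexa (1.58, adjusted p = 4.72e-07), and cathepsin D, Ctsd (1.18, adjusted p = 5.17e-06), were among those called higher.

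Redox and metal genes split, with 5 of 23 called higher and 8 lower, although without replicate 1 only 3 were lower. The shares were 21.7% higher and 34.8% lower, against 16.3% and 9.53% over all genes tested. Nqo1, a quinone reductase, had 155, 40.8, 149 and 42 RPM on day 4 and 15.6, 5.34, 9.57 and 15.5 RPM on day 8 (log2 fold change -2.91, SE 0.38, adjusted p = 4.18e-07). Its day 4 values were highest in the double cultures, and all of them lay above day 8. Slc40a1, the iron exporter ferroportin, had 88.7, 40.1, 83.3 and 30.8 RPM and 267, 138, 187 and 128 RPM without overlap (log2 fold change 1.65, SE 0.44, adjusted p = 0.00332). The iron store Fth1 (-1.53, adjusted p = 6.67e-08) and the glutathione transferase Gsta4 (-2.81, adjusted p = 1.35e-10) fell, and Gpx3 (1.73, adjusted p = 8.63e-05) and the carbonic anhydrases Car4 (1.67, adjusted p = 0.000943) and Car2 (3.15, adjusted p = 0.000603) rose.

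**Figure D3:**
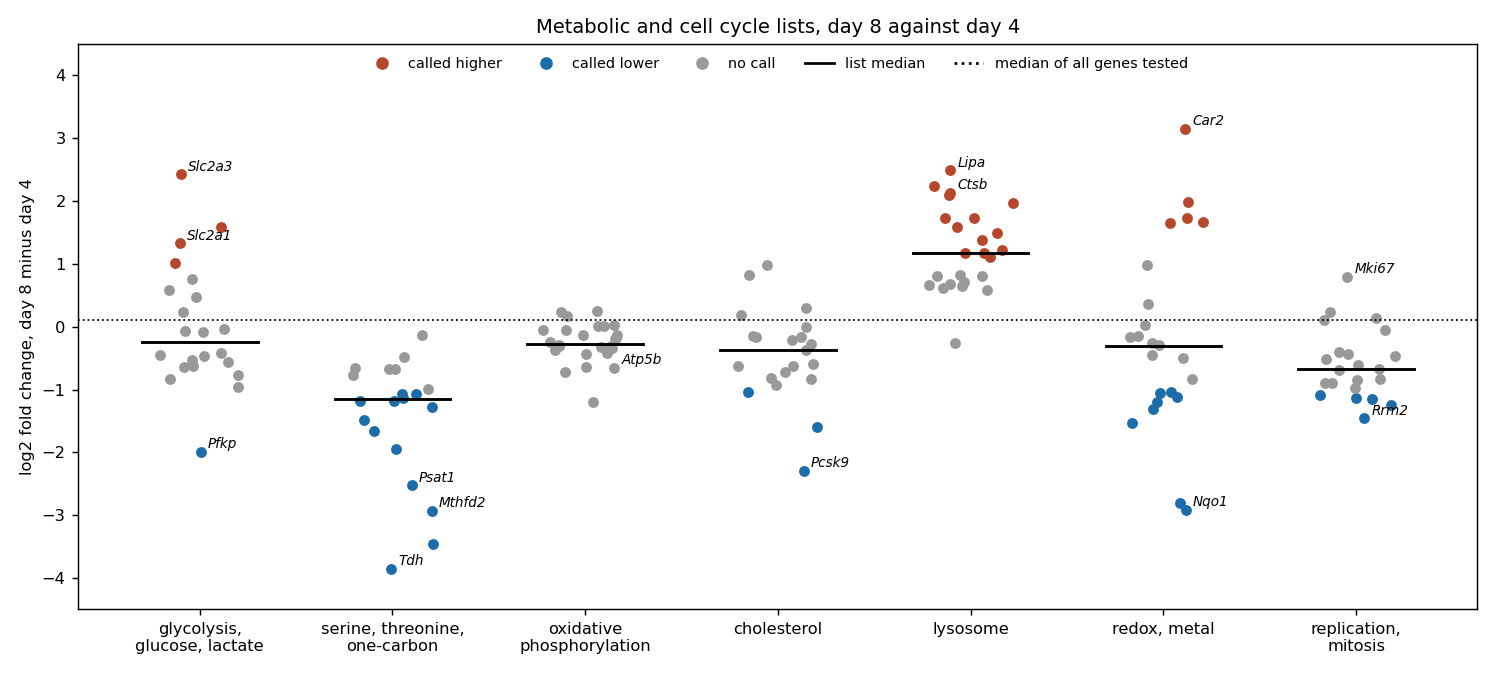
Log2 fold change of day 8 over day 4 for each gene of 7 metabolic and cell cycle lists, coloured by call, with the list median as a bar and the median of all genes tested (0.10) dotted. Lysosome genes lie mostly above the dotted line and all 20 serine and one-carbon genes below it.

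Of 22 genes of DNA replication and mitosis 5 were called lower (22.7%, against 9.53% over all genes tested), 0 higher and 17 had no call (median change -0.68). All libraries of day 8 lay below day 4 for 14 of the 22, against 13.4% of all genes tested. Without replicate 1, 2 or 4 the number lower was 3, 8 or 9, and with no minimum fold it was 15. Ccne1, cyclin E of the start of S phase, had 270.2, 302, 249.5 and 257 RPM on day 4 and 102, 112, 108 and 136 RPM on day 8 without overlap (log2 fold change -1.24, SE 0.15, adjusted p = 1.03e-07). The helicase subunit Mcm2 (-1.15, adjusted p = 4.69e-05) and ribonucleotide reductase Rrm2 (-1.46, adjusted p = 7.14e-07) fell. Cdk1 (0.11, adjusted p = 0.72) and the proliferation marker Mki67 (0.79, adjusted p = 0.105) had no call. Among 16 genes of cell cycle brakes and D cyclins 2 were higher, Cdkn1c and the antiproliferative Btg2 (1.80, adjusted p = 2.98e-06), and 3 lower. These were 12.5% and 18.8%, against 16.3% and 9.53% over all genes tested.

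The 15 largest rises also held genes outside the lists. Csf1, the macrophage growth factor, had no read on day 4 and 168, 79.2, 87 and 44 RPM on day 8, at least 229.6-fold higher. Tinagl1, a secreted matrix protein, had 0.672, 0, 2.25 and 0 RPM and 359, 116, 339 and 98.7 RPM (log2 fold change 7.89, SE 0.59, adjusted p = 8.42e-12). The X-linked Nxf7, of the nuclear RNA export factor family, had 1.34, 0, 3.38 and 0 RPM and 514, 126, 426 and 80.9 RPM (log2 fold change 7.66, SE 0.75, adjusted p = 1.88e-09). In both of the latter the double cultures of day 8 were highest. Myof, which repairs membranes, was at least 224-fold higher, the protease gene Tmprss2 was higher by a pooled factor of 242 (95% counting interval 66.7 to 2007), and the X-linked placental homeobox gene Rhox6 (6.92, adjusted p = 2.58e-09) and 3830417A13Rik (6.86, adjusted p = 7.71e-12) completed them with members of the lists already named. Fth1 and Rhox6 have close copies in the genome, so their reads may be shared with those.

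The largest falls were of genes with few reads left. Mcf2, a guanine nucleotide exchange factor gene on the X chromosome, had 90.7, 31.1, 95.2 and 41.5 RPM on day 4 and 0, 0, 0.87 and 0 RPM on day 8, a pooled factor of 386 (95% counting interval 68.9 to 15280.0). Its double cultures held the most on day 4. Ankrd35 and Enox1 had no read on day 8 and were at least 89.4-fold and 73.7-fold lower. Lrrc2 was lower by a pooled factor of 172 (95% counting interval 47.2 to 1423), 4930548H24Rik by 180.3 (95% counting interval 32 to 7157) and the spectrin gene Spna1 by 68 (95% counting interval 23 to 332). Hsd17b14 (-6.27, adjusted p = 5.3e-11), Pla2g1b (-6.03, adjusted p = 3.22e-15), Calca, which encodes calcitonin and CGRP (-5.95, adjusted p = 1.1e-11), Gm13225 (-5.73, adjusted p = 2.67e-11), Sept1 (-5.39, adjusted p = 2.31e-10), 4930566F21Rik (-5.38, adjusted p = 3.15e-11) and Hsf2bp, a meiotic recombination gene (-5.36, adjusted p = 7.78e-11), were the others, beside Tdrd12 and Fgf15.

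Levels on the days between are given as a description. Otx2 started at a mean of 0.578 RPM on day 0, peaked at 270.1 RPM on day 4 and had come down to 109 RPM a day later and 73.7 RPM by day 7. Krt8 was at 1.2 RPM on day 3 and passed through 68.3 RPM on day 5 and 478 RPM on day 6 to 596 RPM on day 7. Tagln climbed to 175 RPM by day 5 and 334 RPM by day 6, against 202 RPM on day 8. On day 5 the streak gene T was still at 0.293 RPM and Plac1 at 0, and on day 6 they were at 22.6 and 5.95. Tfap2c was higher on day 0, at 95.8 RPM, than on day 4, and Col4a1 dipped, with 61 RPM on day 3 and 12.9 RPM on day 4, before its rise.

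**Figure D4:**
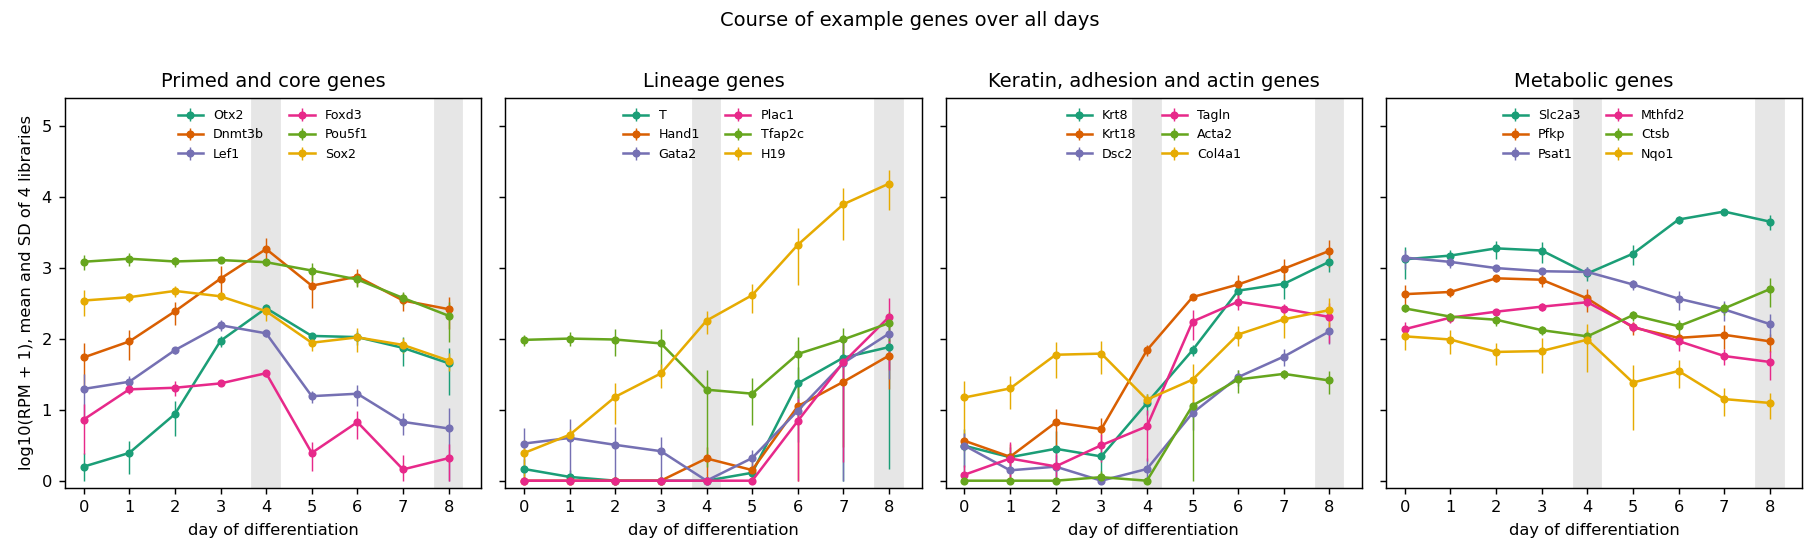
Mean over the 4 libraries of each day, as log10(RPM + 1), for 24 genes from day 0 to day 8, with bars of 1 SD of the RPM values (cut at 0) and days 4 and 8 shaded. Otx2, Dnmt3b, Lef1 and Foxd3 peak on day 3 or 4, Krt8, Krt18 and Tagln are higher on day 5 than on day 4, and T, Hand1, Gata2 and Plac1 go up from day 6.

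Whether the change itself depended on line or label was tested by interaction terms. For line, 0 genes were called by limma (873 at an unadjusted p under 0.05, and 0 called by voom), with 2 genes after thinning and 4 without replicate 2. For label, 62 genes (0.424% of those tested) were called, 40 with a more positive change in the single cultures and 22 with a more negative one. In 37 of the 40 both double cultures lay above both single ones on day 4, and in 33 both single cultures lay above both double ones on day 8, while 17 of the 22 had under 10 RPM on both days. Without the day 0 libraries 191 genes were called for label, and with days 4 and 8 only 99 were. Leaving out a replicate left 4 to 23 genes called (7, 8, 23 and 4 without replicates 1 to 4), where the label of the missing replicate is held by a lone culture whose spread is taken from the other libraries.

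Nanog, the homeobox factor of pluripotent cells, had 196, 36.9, 229.8 and 57.7 RPM on day 4 and 73.2, 202, 70.5 and 264 RPM on day 8. It went down in both double cultures and up in both single ones (changes of -1.42, 2.45, -1.71 and 2.19), and the single minus double difference was 3.89, SE 0.37, adjusted p = 2.57e-06. When a replicate was left out it was 3.75 to 4.03 with adjusted p = 0.000242 to 0.0173, and Nanog was called under every alternative. With the labels averaged no change was called (0.38, adjusted p = 0.551), so its mean hides opposite courses.

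Genes of the Nodal pathway, which specifies streak and left side, also differed by label. Nodal, the ligand, had 114, 51.1, 112 and 46.5 RPM on day 4 and 31.7, 80.7, 48.7 and 97.5 RPM on day 8 (difference 2.39, SE 0.42, adjusted p = 0.00814). Lefty1, its secreted inhibitor and target, had 83.3, 20.1, 62 and 14 RPM and 18.7, 56.9, 27.9 and 86.8 RPM (difference 3.72, SE 0.53, adjusted p = 0.00103). Both were lower in the single cultures on day 4 and higher in them on day 8. Lefty2 differed by 3.51 (adjusted p = 0.0185). The coreceptor gene Tdgf1 fell in all 4 cultures and less in the single ones (changes of -3.70, -1.11, -2.29 and -0.56, difference 2.16, adjusted p = 0.0497), and on day 4 its labels overlapped. The related coreceptor gene Cfc1, chosen after its values were seen, differed by 5.53 (adjusted p = 0.00863). Its single cultures had no read on day 4 and its double ones 1 read each on day 8, so this size rests on the value that stands for 0 reads. Left out 1 at a time, replicates gave adjusted p = 0.0494 to 0.244 for Nodal (call lost without 1, 2 and 4), 0.0101 to 0.19 for Lefty1 (call lost without 1 and 4), 0.0414 to 0.361 for Lefty2 (call lost without 1, 3 and 4), 0.0141 to 0.808 for Tdgf1 (call lost without 1, 2 and 4) and 0.0391 to 0.279 for Cfc1 (call lost without 1, 2 and 4), with the sign kept, and Tdgf1 also lost its call without the replicate block (adjusted p = 0.075).

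In the streak and mesoderm list 2 of 17 genes tested were called for a label difference, Fgf8 and Eomes, against 0.424% of all genes tested. Fgf8, an FGF of the streak, had 4.03, 0, 3.38 and 0 RPM on day 4 and 20.2, 106, 22.6 and 94 RPM on day 8 (difference 4.99, SE 0.83, adjusted p = 0.00366). It was called higher with the labels averaged (5.03, adjusted p = 7.54e-08), and single cultures were at 0 on day 4 and highest on day 8, so the size of this difference rests on the value that stands for 0 reads. Eomes, a T-box factor of streak and trophoblast, had 17.5, 1.94, 14.1 and 3.92 RPM and 4.15, 36.4, 2.61 and 11.9 RPM (difference 5.17, SE 1.11, adjusted p = 0.0407). Of the other lists, Wnt8a (6.64, adjusted p = 0.00209), listed with the primed genes, and the trophoblast gene Tfap2c (2.54, adjusted p = 0.00209), which rose in all 4 cultures, were also called, and Wnt8a was called higher over all cultures without replicate 3 (2.57, adjusted p = 0.0237). Adjusted p without a replicate was 0.0586 to 0.176 for Fgf8 (call lost whichever of the 4 was left out), 0.118 to 0.566 for Eomes (call lost whichever of the 4 was left out), 0.0332 to 0.178 for Wnt8a (call lost without 2, 3 and 4) and 0.0332 to 0.214 for Tfap2c (call lost without 2 and 4).

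In the cholesterol list 3 of 21 genes were called for a label difference, against 0.424% of all genes tested. Cyp51, the lanosterol demethylase, had 114, 105, 177 and 131 RPM on day 4 and 64.4, 160.3, 61.8 and 199.9 RPM on day 8 (difference 1.78, SE 0.30, adjusted p = 0.00366). Its single cultures were highest on day 8, while on day 4 the labels overlapped. Fdps (1.89, adjusted p = 0.0419) and the X-linked Nsdhl (2.10, adjusted p = 0.0036), the latter chosen after its values were seen, were called too, Nsdhl being outside the list. The difference was positive in 20 of the 21 genes (median 0.62), against 7057 of all 14612 genes tested (median -0.03). It was also positive in 17 of 20 serine and one-carbon genes (median 0.77) and 20 of 22 replication genes (median 0.61), where 0 were called. The lean was not particular to these lists, with 22 of 26 oxidative phosphorylation, 17 of 23 redox and 15 of 22 glycolysis genes positive. Lysosome genes leaned the other way, with 5 of 24 positive. Without a replicate, adjusted p was 0.0157 to 0.346 for Cyp51 (call lost without 2, 3 and 4), 0.0336 to 0.812 for Fdps (call lost without 1, 2 and 4) and 0.0662 to 0.214 for Nsdhl (call lost whichever of the 4 was left out), and the call of Fdps over all cultures (-1.04, adjusted p = 0.00209) was lost without replicate 1 (adjusted p = 0.0501) or 3 (adjusted p = 0.0562).

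The opposite course was seen in Zscan4d, a gene of the 2-cell embryo and of rare stem cells, chosen after its values were seen. It had 0, 4.53, 0 and 6.17 RPM on day 4 and 13, 0, 8.7 and 0 RPM on day 8. Its reads were thus in the single cultures on day 4 and in the double ones on day 8. The difference was -7.21 (SE 0.97, adjusted p = 0.00061), resting like that of Fgf8 on the value for 0 reads. Means on days 0 to 3 were 4.24, 15.9, 9.17 and 7.78 RPM. Without replicate 1 its adjusted p was 0.1. Zscan4 genes are near-identical copies, so reads can be split among them. X-linked genes as a whole had a median difference of 0.54, with 416 of 569 positive, and autosomal genes one of -0.05. The part of X dosage in the differences between labels was not tested.

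**Figure D5:**
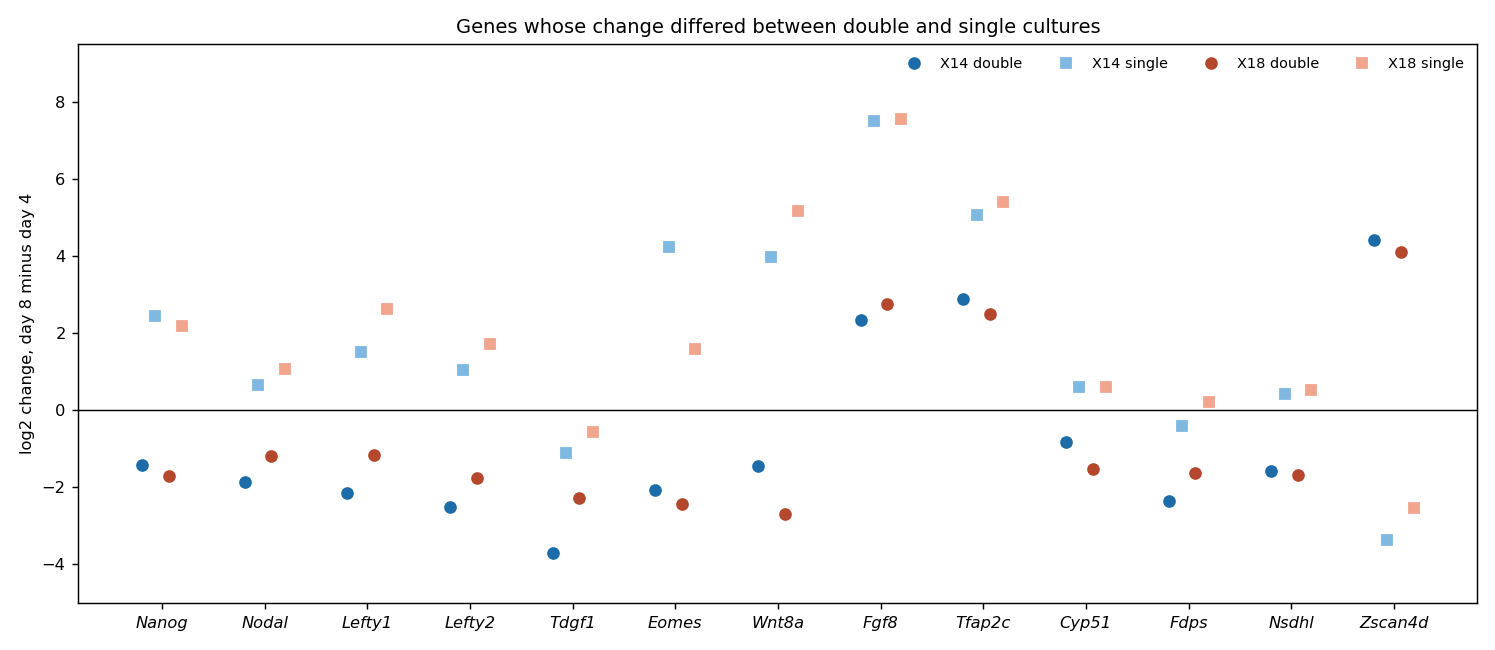
Log2 change from day 4 to day 8 in each culture (circles double, squares single) for 13 genes whose change differed between labels, with 0 reads counted as 0.9 read. Nanog, Nodal, Lefty1, Lefty2, Eomes, Wnt8a, Cyp51 and Nsdhl lie below 0 in both double cultures and above 0 in both single ones, and Zscan4d the other way.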

How the data were processed

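RNA was sequenced from 36 libraries of Xmas mESCs, 4 on each day, and grouped by the day, line and label in the sample names. Reads were 75 bp single-end, aligned to mm10 with TopHat2 2.0.12 per the labels (the methods of the study name tophat or hisat2) and quantified in SeqMonk. The annotation version and the use of strand are not given in the sources used here, so reads of a gene and an antisense neighbour cannot be told apart. The deposited values are on the log2 scale, and although named log CPM they are log2 RPKM, with 0 reads written by the authors as 0.9 read. All values resolved to whole reads (100% within a tolerance of 0.02), from which RPM and depth were taken. All 36 columns were mapped, leaving 0.

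Genes with at least 1 RPM in at least 4 libraries (14612) were tested with limma 3.58.1 (lmFit, eBayes with trend) under R 4.3.3, applied to the deposited values, with day and culture as factors and all 36 libraries in one fit (24 residual degrees of freedom). The contrast was day 8 minus day 4, two-sided, and interactions of day with line and with label were fitted in the same way. Calls needed a Benjamini-Hochberg adjusted p under 0.05 and a log2 fold change of at least 1. Culture was kept as a block because same-numbered libraries share a line and label. Deviations from the day means correlated by 0.12, 0.194, 0.123 and 0.134 within the 4 cultures. Any pair of libraries of day 4, or of day 8, differed by a chi-squared of at least 1.437 per gene, so none of these was taken for a copy. Libraries of the other days were not compared in this way. The fit was tested on simulated data.

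The text names members of the lists, plus the 15 largest rises and 15 largest falls among called genes whose 4 pairs had the same sign and whose mean reached 10 RPM on 1 of the days. The members and lists were chosen with earlier results of these data known. Foxf1 and Msmo1 were not analysed here, and results of some other genes are not reported here. Alternatives were other normalizations, filters, pseudocount, voom, thinning, other sets of libraries and leaving out each replicate.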

Additional observations from a re-analysis of the deposited data

Results flagged for a closer look

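In 3 of 110 sets of 4 values (a gene on a day), the highest library stood apart from the others, where chance picks about 1 in 20. Each rests on a few reads in 1 library with the other 3 at 0. Fgf15 had 0.972 RPM on day 8 in X14 single, Col1a2 had 0.647 RPM on day 4 in X14 single, and Mcf2 had 0.870 RPM on day 8 in X18 double.

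By limma's interaction term, single and double cultures differed in their change between the days for 14 named genes. In the Nodal pathway and its context, the single minus double difference on the log2 scale was 3.89 for Nanog, 2.39 for Nodal, 3.72 for Lefty1, 3.51 for Lefty2, 2.16 for Tdgf1 and 5.53 for Cfc1. Among streak and trophoblast genes it was 5.17 for Eomes, 4.99 for Fgf8, 6.64 for Wnt8a and 2.54 for Tfap2c. For sterol enzymes it was 1.78 for Cyp51, 1.89 for Fdps and 2.10 for Nsdhl. Zscan4d went the other way, at -7.21.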

How the results depend on the processing

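With a mean of at least 10 RPM as filter, 1455 genes were called higher and 811 lower out of 9569 tested, and with no minimum fold 2188 were lower. The other alternatives left both counts within 1.5 times of 2381 and 1393, and leaving out a replicate gave 1858 to 2271 higher and 1134 to 1337 lower. Without the replicate block 2289 were higher and 1317 lower, and among the named genes only Cldn6, and for the label difference Tdgf1, lost a call. The line difference had 2 calls after thinning and 0 to 4 when a replicate was left out. The label difference had 62 calls and moved most: 99 with days 4 and 8 only, 191 without day 0, 103 after quantile normalization, 35 with the stricter filter, 149 after thinning and 4 to 23 when a replicate was left out. The cause was not tested beyond the number of genes or libraries each leaves.

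Of 2981 comparisons of 200 named genes with an alternative, 2947 kept direction and side of the threshold, 12 lost and 22 gained a call, and 0 reversed. For 14 genes named for a label difference, 43 of 208 comparisons lost the call and 0 reversed. Beyond leaving out replicates or the block, these were Eomes (adjusted p = 0.0542) and Fdps (0.145) after thinning, and Tdgf1 after scaling to the 75th percentile (0.0829) or with the stricter filter (0.0639). Depth limits genes near the floor of 3 reads, most on day 8 in X18 single.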
